A study of Homo sapiens with 4 samples.

Results

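The HOXA cluster of MOLM13 cells was described through the H3K27ac peaks that lie in and around 9 listed genes, HOXA2, HOXA3, HOXA4, HOXA5, HOXA6, HOXA7, HOXA9, HOXA10 and HOXA11, of 20037 protein-coding genes in the RefSeq table. The genes were taken by name, and every peak of chromosome 7 within 50 kb of their span (GRCh38, chr7:27050354-27235232, 184.9 kb) was counted once per list and placed relative to each gene. MOLM13 is a human acute myeloid leukemia (AML) line that carries an MLL-AF9 fusion. The tested cells received 500 nM SNDX-50469, a Menin inhibitor, together with 500 nM OTX015, an inhibitor of the BET bromodomain proteins. They were compared with cells given 500 nM OTX015 alone, so that both groups carried OTX015 and the comparison addresses what the Menin inhibitor added to it. Both treatments lasted 16 hours and were profiled in bulk from 1 cell line, with 1 H3K27ac ChIP library each. Untreated cells and cells given SNDX-50469 alone were not analysed here, nor were the 2 input libraries. Differences below therefore have no replicate behind them and were not tested.

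HOXA genes encode homeodomain transcription factors. They lie in a row on the chromosome in the order in which they act along the body axis, and in early blood progenitors the posterior members are on and are switched off as myeloid cells mature. MLL proteins, tethered by Menin, keep this cluster active, and MLL fusion proteins hold HOXA9 and its neighbors on in leukemia. Acetylation of lysine 27 on histone H3 marks active promoters and enhancers, and BET proteins bind acetylated histones.

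The lists held 86207 combination and 55852 OTX015 peaks, of which 1024 and 909 lay on chromosome 7. The background solved from the lowest peaks was 1.47 fragments per base in the combination library and 0.764 in the OTX015 library, a ratio of 1.92. A combination peak could thus be listed at 4.76 times background (7 fragments), whereas an OTX015 peak needed 6.54 times (5 fragments). The exact Poisson 95% intervals of those pileups, for counting error only, were 1.92 to 9.82 and 2.12 to 15.3 times background, so that a single weak peak found in 1 list and missed in the other was not distinguishable by its depth. Over the genome, peaks covered 44.4 Mb in the combination list and 26.0 Mb in the OTX015 list. On chromosome 7, in contrast, they covered 0.371 Mb in the combination list and 0.395 Mb in the OTX015 list, 0.941 times as much. Peaks lay at 12 of 12 myeloid marker loci in the combination list and at 11 of 12 in the OTX015 list (98.6 and 74.0 kb in sum). Over all protein-coding loci, taken with 10 kb either side, 13090 of 20037 had cover in at least 1 list. The share for each list on its own is not given here, so marker counts per list are a description only. Of 5 T cell marker loci 1 had cover, the same in both lists (CD3D, 0.333 and 0.582 kb), and so had 1 of 5 erythroid loci (KLF1, 0.551 and 0.499 kb). Of 5 non-blood loci 1 had cover in each list, GFAP in the combination list (0.957 kb) and INS in the OTX015 list (0.130 kb).

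Sequences are shown for the places where the peaks of both lists drew closest to a start of a listed gene, and for the microRNA that the peaks of only 1 list covered. The first pair are RefSeq promoter windows (GRCh38.p14, minus strand, 250 bases before to 50 after the start), those of HOXA9 at chr7:27165488-27165787 and of the inner start of HOXA10 at chr7:27174271-27174570, with CG dinucleotides in capitals. The other pair are the mature arms of MIR196B (minus strand, chr7:27169528-27169549 for the 5p arm and chr7:27169493-27169514 for the 3p arm), with the seed, bases 2 to 8, in capitals.
HOXA9: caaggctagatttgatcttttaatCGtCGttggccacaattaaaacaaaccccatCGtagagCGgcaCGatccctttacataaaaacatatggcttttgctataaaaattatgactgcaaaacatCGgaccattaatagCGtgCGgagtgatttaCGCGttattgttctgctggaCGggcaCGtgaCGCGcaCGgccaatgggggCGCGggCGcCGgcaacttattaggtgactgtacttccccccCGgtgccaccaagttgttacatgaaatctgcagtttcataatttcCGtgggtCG
HOXA10 inner start: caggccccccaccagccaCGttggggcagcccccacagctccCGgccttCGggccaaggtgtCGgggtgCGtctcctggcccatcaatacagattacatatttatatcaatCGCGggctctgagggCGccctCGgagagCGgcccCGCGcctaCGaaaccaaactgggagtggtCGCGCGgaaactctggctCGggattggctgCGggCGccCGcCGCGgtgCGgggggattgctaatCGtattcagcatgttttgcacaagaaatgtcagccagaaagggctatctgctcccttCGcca
hsa-miR-196b-5p: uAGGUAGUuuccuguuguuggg
hsa-miR-196b-3p: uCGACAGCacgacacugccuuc
The HOXA9 window held 22 CG dinucleotides and that of the inner HOXA10 start 25, against a median of 14 over all 35116 promoter windows of the table (25th and 75th percentiles, 4.0 and 28).

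Most of the cover in both lists lay between the outer ends of HOXA9 and HOXA10. Over that interval as a whole the combination list covered less, although within it the HOXA9 body had more combination cover (1.19 against 0.338 kb). Over the window, peaks covered 3.49 kb in the combination list and 6.43 kb in the OTX015 list (1.89% and 3.48% of its length), a difference of −2.94 kb, or 0.542 times as much. The number of peaks was the same, 8 and 8, but their lengths differed, from 109 to 847 bp (median 416.5) in the combination list and from 126 to 2306 bp (median 343.5) in the OTX015 list. Mean pileups of these peaks ran from 7.00 to 9.04 fragments in the combination list and from 5.00 to 6.45 in the OTX015 list. The lowest pileups listed were 7 and 5 fragments, so the counting error given above bears on every peak of the window. Only 1.27 kb lay under peaks of both, which is 36.5% of the combination cover and 19.8% of the OTX015 cover. Within 5 Mb either side of the window 0.304% and 0.259% of the sequence was covered, so that the window was 6.20 times as densely covered as its surroundings in the combination list and 13.4 times in the OTX015 list. In bulk chromatin, fewer cells bearing the mark and less of it per cell cannot be told apart.

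**Figure D1:**
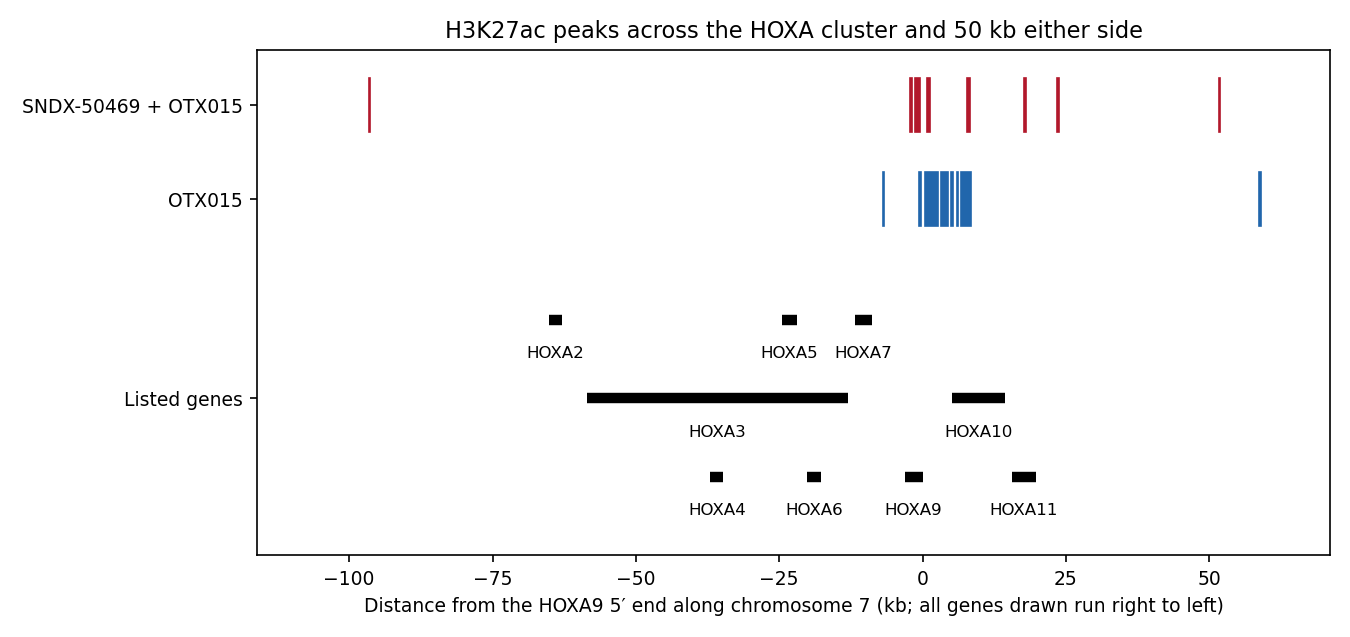
H3K27ac peaks of the combination list (red, top) and of the OTX015 list (blue) by distance from the HOXA9 5′ end in kb, with the bodies of the 9 listed genes in black; narrow peaks are drawn with a thin outline so that they can be seen. Of 8 peaks in each list, 4 combination and 6 OTX015 peaks lie between the outer ends of HOXA9 and HOXA10, and none of either list lies between HOXA2 and HOXA7.

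From HOXA2 to HOXA7 neither list held a peak within the 56.32 kb of gene bodies and the spaces between them. Chromosome 7 as a whole was thinly covered in both lists. HOXA2 patterns the hindbrain, HOXA3 the thymus and parathyroid in mice, HOXA4 and HOXA6 the axial skeleton in mice, and HOXA5 the lung and trachea in mice. The peak nearest to the 5′ end of HOXA5 was 19.7 kb away in the combination list and 15.0 kb away in the OTX015 list. For HOXA4 these distances were 32.6 and 27.9 kb, for HOXA2 33.6 and 56.0 kb, and for HOXA6 15.6 and 10.9 kb. With 10 kb added either side, HOXA2, HOXA4, HOXA5 and HOXA6 still had no cover in either list, and HOXA3 had 0 kb in the combination list and 0.149 kb in the OTX015 list. That 0.149 kb was a single OTX015 peak of 3.90-fold at chr7:27158645-27158793, located 1970 bp upstream of the HOXA7 5′ end. It was also the sole peak of either list between HOXA7 and HOXA9.

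HOXA9, a homeodomain factor known to be raised in MLL-rearranged leukemia, had peaks inside the gene and upstream of it in both lists, but in different proportions. In the gene body the combination list held 2 peaks and covered 1.19 kb (38.3% of the gene), and the OTX015 list held 1 peak and covered 0.338 kb (10.9%), a difference of 0.850 kb. The combination peaks lay at chr7:27163374-27163714 (341 bp, 4.06-fold, −log10 q 2.42) and at chr7:27164180-27165026 (847 bp, 3.54-fold, −log10 q 1.68). The OTX015 peak lay at chr7:27164892-27165229 (338 bp, 3.58-fold, −log10 q 1.30), which was 6.96 times background. The shorter combination peak, 1823 bp inside the gene, stood above 96.4% of all combination peaks by −log10 p, and no OTX015 peak met it. The 2 combination peaks, at 6.15 and 5.26 times background, were below the 6.54 times that an OTX015 peak needed. Levels that low can be seen in the combination list only, so the larger cover there was not comparable between the lists.

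Between HOXA9 and HOXA10 the order was turned round. In these 5.067 kb, which lie upstream of HOXA9 and downstream of HOXA10, peaks covered 0.535 kb (10.6%) in the combination list and 3.65 kb (72.1%) in the OTX015 list, a difference of −3.12 kb. The combination list held 1 peak there, at chr7:27166220-27166754 (535 bp, 3.63-fold). The OTX015 list had its longest and strongest peak of the window at chr7:27165914-27168219 (2306 bp, 4.22-fold, −log10 q 2.15), which stood above 94.4% of that list by −log10 p and above 98.0% of its chromosome 7 peaks by length. Its mean pileup was still only 6.45 fragments, where the lowest OTX015 peaks had 5. A further OTX015 peak at chr7:27168781-27169960 (1180 bp, 4.05-fold) lay over the 5′ end of HOXA10-AS, an antisense transcript of HOXA10. It covered all 84 bp of MIR196B (chr7:27169480-27169563), the precursor of the miR-196b arms printed above, a microRNA known to repress HOX mRNAs. The nearest combination peak was 2726 bp from MIR196B, and HOXA10-AS had 0 kb under combination peaks and 1.54 kb under OTX015 peaks.

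HOXA10, a homeodomain factor of myeloid progenitors and the uterus, had less cover in its body in the combination list. Peaks covered 0.602 kb (6.50%) in the combination list and 1.98 kb (21.3%) in the OTX015 list, a difference of −1.37 kb. The single combination peak, at chr7:27173194-27173795 (602 bp, 3.47-fold), lay wholly within an OTX015 peak at chr7:27172284-27173952 (1669 bp, 3.71-fold). Short OTX015 peaks of 349 and 126 bp lay further toward the 3′ end, at 3.88-fold and 3.40-fold. A fold of 3.40 is the lowest of the whole OTX015 list. The stretch from the 3′ end of HOXA9 to the outer 5′ end of HOXA10 measured 17.42 kb. Its cover was 2.33 kb in the combination list and 5.97 kb in the OTX015 list, 0.390 times as much. Of it, 1.05 kb was found in the combination list only and 4.70 kb in the OTX015 list only. This interval held 66.7% of the window's combination cover and 92.8% of its OTX015 cover. The longest stretch without a peak inside it was 6439 bp in the combination list (chr7:27166755-27173193), whereas the OTX015 list broke there into stretches of 561, 476, 792 and 580 bp.

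**Figure D2:**
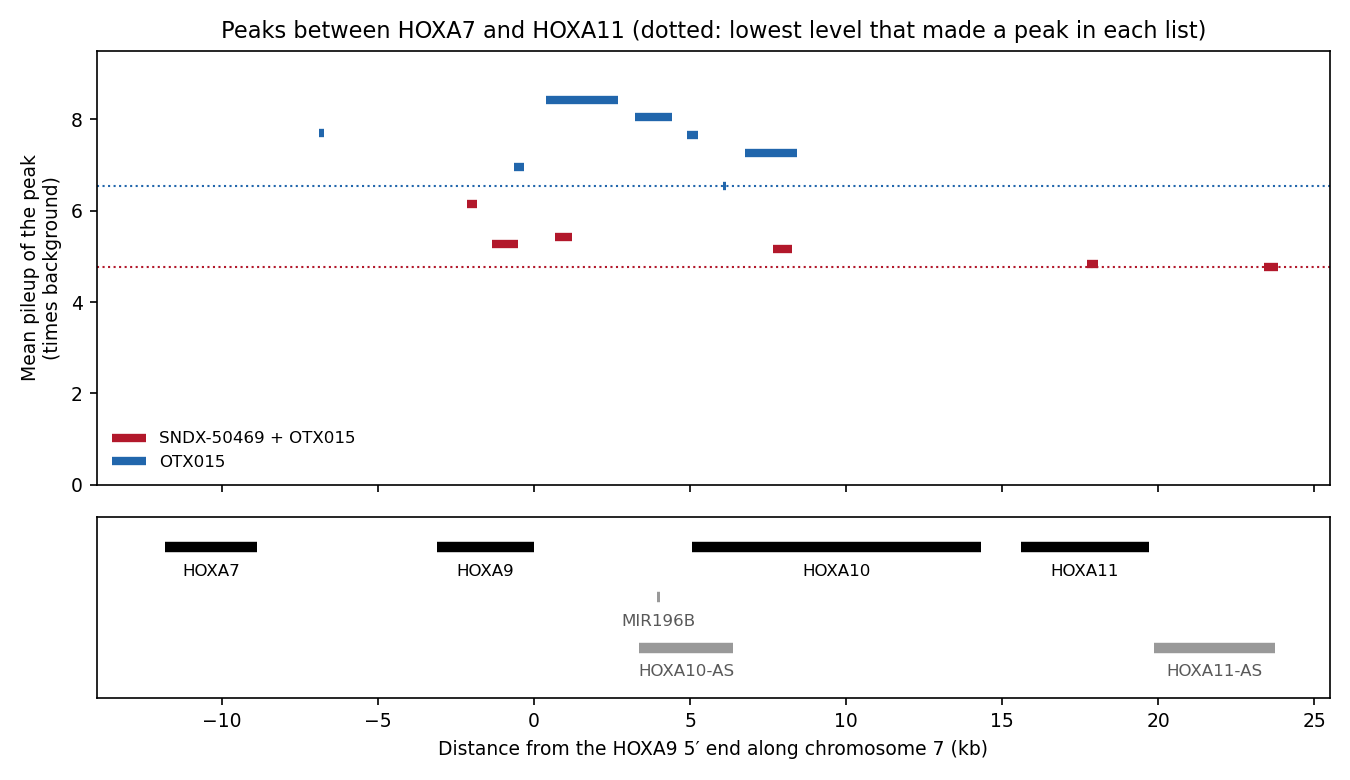
Mean pileup of each peak in times background (y) against distance from the HOXA9 5′ end in kb (x), for the combination list (red) and the OTX015 list (blue), with listed genes in black and other genes in gray. The dotted lines are the lowest level at which a peak was listed, 4.76 times for the combination and 6.54 times for OTX015, so that levels between the lines can be seen in the combination list only.

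HOXA11, which patterns the forearm, kidney and uterus, was covered only weakly. Its body had 0.371 kb under 1 combination peak (chr7:27183252-27183622, 3.29-fold) and 0 kb in the OTX015 list. That peak stood at 4.84 times background, below the 6.54 times that an OTX015 peak needed. A 462 bp combination peak in the antisense gene HOXA11-AS and a 220 bp combination peak beyond it were both at 3.24-fold, the lowest fold of that list. In the 50 kb flanks the combination list held 1 peak on the HOXA2 side and 2 on the HOXA11 side (0.109 and 0.682 kb), and the OTX015 list 0 and 1 (0 and 0.315 kb). The window's combination peaks outside the HOXA9 to HOXA10 interval were thus at 3.24-fold to 3.29-fold, below the 4 peaks within it.

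At the 5′ ends themselves, no peak of either list lay over a start of a listed gene. Within 1 kb of the outer 5′ end, 1 of the 9 genes had a combination peak and 1 an OTX015 peak, HOXA9 in both cases, where 15.3% and 14.9% of 19675 protein-coding genes had one. Of the 938 protein-coding genes of chromosome 7, 79 had a combination peak and 103 an OTX015 peak there, a smaller share than over the genome. The HOXA9 5′ end lay in a stretch without peaks of 1193 bp in the combination list (chr7:27165027-27166219) and of 684 bp in the OTX015 list (chr7:27165230-27165913). The nearest combination peaks were 511 bp inside the gene and 683 bp upstream, and the nearest OTX015 peaks 308 bp inside and 377 bp upstream. HOXA10 has 2 RefSeq starts, 5541 bp apart. At the inner start, which was looked at after seeing the data, the nearest peak was 525 bp away in the combination list and 368 bp in the OTX015 list. Over the 15 RefSeq starts of the 8 listed genes with an entry, 0 of the 300-base windows met a peak of either list. Since a peak list gives no signal between peaks, the level of acetylation in these gaps was not measured.

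With 10 kb added either side, a locus takes in peaks of its neighbors, so that the 9 genes are not independent. Cover was lower in the combination list at 4 of the 5 loci with cover, HOXA3, HOXA9, HOXA10 and HOXA11, where 40.7% of 13090 protein-coding loci with cover were lower. It was higher at 1, HOXA7, where 59.3% were higher. On chromosome 7 alone 44.5% of 519 loci were lower. The median difference was −0.360 kb over the 5 loci, 0.134 kb over all loci with cover and 0.0910 kb over those of chromosome 7. HOXA7, a target of MLL fusion proteins, had 1.64 kb in the combination list and 1.25 kb in the OTX015 list, a difference of 0.395 kb, all of it outside its body, and its flank reached into HOXA9, whose body held more combination cover. HOXA11 had 1.44 and 1.79 kb, of which the OTX015 part lay in HOXA10. Both signs turned with the width of the flank. In the HOXA7 locus the difference was −0.149 kb with 5 kb and −3.79 kb with 20 kb either side, and in HOXA11 it was 0.371 kb for the body alone and 0.833 kb with 5 kb either side. The readings that did not rest on a neighbor's peaks were those of the HOXA9 body, the space between HOXA9 and HOXA10, and the HOXA10 body, together with the HOXA11 body, the last of which was covered in the combination list alone. The combination peaks of the HOXA9 and HOXA11 bodies were below the lowest level of the OTX015 list, 6.54 times background.

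**Figure D3:**
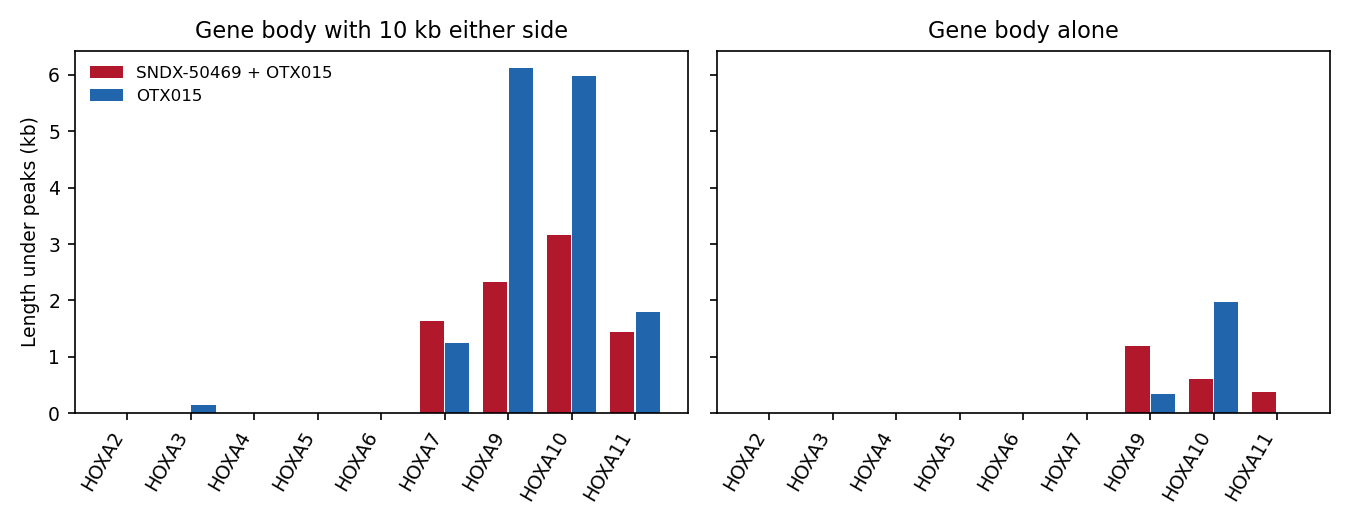
Length under peaks in kb for each of the 9 listed genes, in map order, with the combination list in red and the OTX015 list in blue; the left panel takes the gene body with 10 kb either side and the right panel the gene body alone. HOXA9 has 2.33 kb in the combination list and 6.12 kb in the OTX015 list with flanks, against 1.19 and 0.338 kb in the body alone.

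Where the lists met, they met in the HOXA9 to HOXA10 interval. Of the window's peaks, 3 of 8 in the combination list (37.5%) and 3 of 8 in the OTX015 list (37.5%) overlapped a peak of the other list by at least 1 bp. On chromosome 7 this was 16.5% of 1024 and 17.8% of 909 peaks, and over the genome 21.0% and 33.3%. The first pair, at the HOXA9 5′ part, shared 135 bp, or 15.9% of the combination peak and 39.9% of the OTX015 peak. In the pairs upstream of HOXA9 and in HOXA10 the combination peak was contained whole, and took up 23.2% and 36.1% of the OTX015 peak. The mean levels of the 3 combination peaks were 5.26, 5.42 and 5.16 times background, and those of their OTX015 partners 6.96, 8.43 and 7.26 times. These means were taken over different lengths and each above its own list's lowest level, so their difference carries no error and is given as a description.

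The window difference was also taken under other peak selections. Equal peak numbers and a common enrichment removed peaks from the combination list alone, so that under these the sign was fixed in advance. At a −log10 q of 2 or more, 1 peak remained in each list, the HOXA9 body peak in the combination list (0.341 kb) and the long peak upstream of HOXA9 in the OTX015 list (2.31 kb), and these do not overlap. On chromosome 7 such peaks numbered 95 and 87. With equal numbers of peaks genome-wide, cover was 2.33 kb in the combination list and 6.43 kb in the OTX015 list, and all of the 4 combination peaks left were in the HOXA9 to HOXA10 interval. At a common enrichment of 6.54 times background no combination peak was left in the window, but only 1.35% of all combination peaks passed this limit, 11 of them on chromosome 7.

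**Figure D4:**
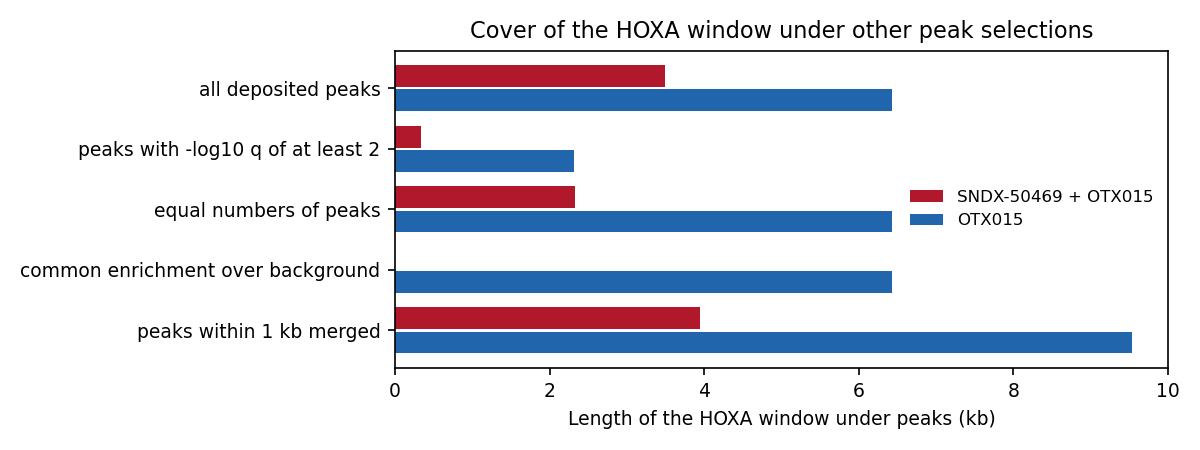
Length of the HOXA window under peaks in kb for the deposited lists and for 4 other peak selections, combination in red above OTX015 in blue. Combination cover runs from 0 to 3.95 kb and OTX015 cover from 2.31 to 9.53 kb, and combination cover is the smaller under each selection, as had to be the case for equal numbers and common enrichment, which removed combination peaks only. The highest values, 3.95 and 9.53 kb, are those with peaks within 1 kb merged, where the gaps between joined peaks count as cover.

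The other HOX clusters were almost bare, in either treatment. With the same flanks, HOXB (300.2 kb, chromosome 17) had 0 peaks in the combination list and 1 in the OTX015 list, HOXC (217.2 kb, chromosome 12) 1 and 0, and HOXD (203.4 kb, chromosome 2) 1 and 2. Cover was 0% and 0.118% of the HOXB window, 0.0516% and 0% of HOXC, and 0.0693% and 0.158% of HOXD, against 1.89% and 3.48% of HOXA. The HOXB peak, 354 bp long and 1492 bp from the HOXB3 5′ end, was shared by the loci of HOXB3, HOXB5 and HOXB6, and the HOXC peak of 112 bp by those of HOXC4, HOXC5, HOXC6 and HOXC8. In HOXD, an OTX015 peak of 116 bp was shared by the loci of HOXD3 and HOXD4. All of the OTX015 peaks in HOXB and HOXD were at 3.40-fold, the lowest of the list. The HOXD combination peak reached a −log10 q of 2.39 but lay 41391 bp from the nearest 5′ end, that of HOXD1.

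**Figure D5:**
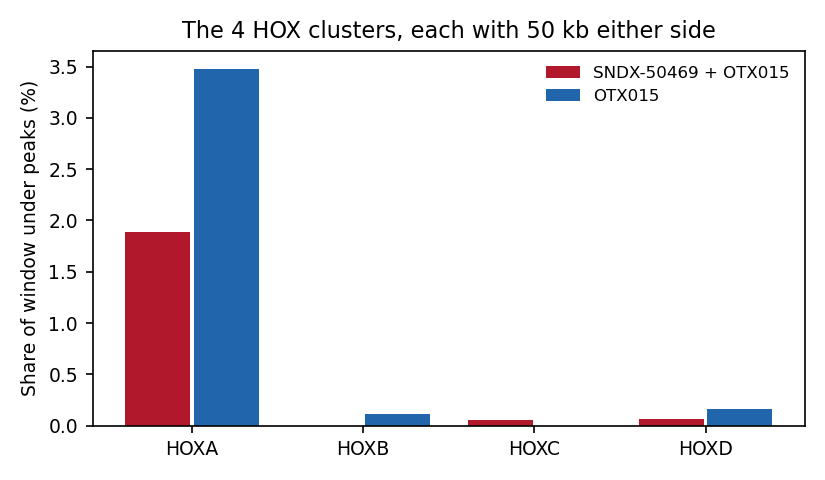
Share of each HOX cluster window under peaks in percent, with the combination list in red and the OTX015 list in blue. HOXA stands at 1.89% and 3.48%, and none of the other clusters passes 0.158% in either list.

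HOX proteins bind DNA together with the TALE homeodomain cofactors of the MEIS, PBX and PKNOX families. All 8 of the cofactor loci reported here had cover in at least 1 list, 5 of them lower and 3 higher with the combination, where 40.7% and 59.3% of all loci with cover were so. A further cofactor is not counted here. The sum of the 8 was 12.9 kb in the combination list and 27.6 kb in the OTX015 list. MEIS1, the partner of HOXA9 in leukemia, had 0 kb in the combination list and 9.34 kb in the OTX015 list, and PBX3 had 1.36 and 5.32 kb. PBX4 (0.348 and 2.44 kb), PKNOX2 (0.680 and 2.20 kb) and PKNOX1 (0 and 0.742 kb) were also lower. PBX2 (8.51 and 7.15 kb), MEIS3 (1.48 and 0.245 kb) and MEIS2 (0.544 and 0.122 kb) were higher. The median difference over the 8 loci was −1.13 kb, beside 0.134 kb over all loci with cover.

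Outside the window, the loci with cover nearest to that of HOXA9 in both lists were DOCK8 (2.44 and 6.05 kb, a distance of 0.133 kb), MTUS2 (2.35 and 6.27 kb, 0.159 kb) and MRPL36 (2.38 and 6.32 kb, 0.207 kb), by the straight-line distance between the cover values of the 2 libraries.

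Of the short motifs looked for on both strands of the RefSeq promoter windows, CACGTG, the E-box letters, was in 4 of the 15 windows of listed genes (HOXA3, HOXA4, HOXA7 and HOXA9) and in 7.26% of all 35116 windows. TATAAA was also in 4 of 15 (HOXA3, HOXA9 and HOXA10) and in 11.5% of all. GGAAGT, the ETS type, was found in HOXA9 and HOXA10 and in 22.8% of all. TGACAG, the MEIS type, was found in HOXA2 and HOXA4 and in 15.8% of all, and the PBX-HOX type TGATTGAT in HOXA2 alone of the listed genes and in 0.484% of all. TGATTTAT was in none of the 15 and in 0.846% of all. CCAAT was in 8 of 15 and in 34.6% of all. HOXA3 has 7 of the 15 windows, and a match in letters says nothing of binding.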

How the data were processed

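H3K27ac ChIP-seq of MOLM13 cells gave 1 broad peak list per treatment. Per the submitters' processing notes, bcl2fastq 2.17, Trimmomatic 0.33, Bowtie 1.1.2, MACS2 2.1.0 and deepTools were used, with GRCh38. The authors deposited for each peak its score, its fold, and its −log10 p and −log10 q values. The fold was read as the ratio of pileup to background after 1 was added to each. Because the backgrounds differed, equal folds in the 2 lists are different multiples of background, and folds are not comparable between the lists. Whether the input libraries served as control is not given in the sources used here. The sample titles write H2K27Ac and the antibody label H3K27Ac, which was followed.

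The lists hold no read numbers. The background was solved from the lowest peaks under a Poisson model with a pseudocount of 1, which gave the depth and the counting error. Cover is the length of a region under the union of peaks. Loci extend 10 kb, and promoters 1 kb, either side of the gene body and of the 5′ end. Overlap needed 1 bp. Gene positions were those of RefSeq on GRCh38.p14, with strands taken from the RefSeq promoter table (15842 genes) or, strand only, GENCODE v44 on GRCh37 (3833 genes). The genome at hand is of another build, so exons, introns and the sequence under peaks were not used here. Sequences are RefSeq's.

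The text names the listed genes, their neighbors in the window, 8 HOX cofactors, and the 3 loci nearest to HOXA9 in cover. It also names up to 3 genes of each other HOX cluster by largest difference (4 where tied), and HOXD1 as the gene nearest to a peak. A further cofactor and 1 marker list are not reported here. The members, lists and rules were chosen with earlier results of these data known. The alternatives were stricter peaks, equal peak numbers, a common enrichment, merged peaks, other flanks and other overlaps. Cover and background routines were tested on simulated data. Scripts ran in Python 3.11.15 with scipy 1.17.1, pandas 2.3.3, numpy 2.4.6 and matplotlib 3.10.9.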

Additional observations from a re-analysis of the deposited data

How the results depend on the processing

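The window difference of −2.94 kb kept its sign, at −1.97 kb with −log10 q of at least 2, −4.11 kb with equal peak numbers, −6.43 kb at a common enrichment, −5.57 kb with peaks within 1 kb merged, −3.42 kb without flanks, and −2.96 kb with 10 kb flanks. Equal numbers and the common enrichment removed combination peaks only, which fixes the sign. Merging counts the gaps between joined peaks as cover. With 100 kb flanks it was −2.94 kb. The HOXA9 to HOXA10 interval, added after seeing the data, stood at −3.64 kb, and at −1.97 kb (q), −5.97 kb (common enrichment) and −6.27 kb (merged). The combination list's 8 peaks became 1 (q), 4 (equal numbers), 0 (common enrichment) and 5 (no flanks), and the 8 of OTX015 became 1 (q) and 3 (merged). Genes covered less numbered 1 for the body alone and 8 with 50 kb either side, against 4, and genes covered more 0 (q), 0 (common enrichment) and 2 (body alone), against 1. With 50 kb, those 8 loci took in the same peaks of the HOXA9 to HOXA10 interval. Promoters with a combination peak were 0, 2 and 3 at 0.5, 2 and 5 kb and 2 over every RefSeq start, and with an OTX015 peak 2 at 2 kb, 2 at 5 kb and 2 over every start, against 1 each; the start setting was added after seeing the data. For these counts of genes and promoters, the share over all protein-coding genes was not taken at the other settings. Requiring at least 50% of the shorter peak left 2 shared peaks of 3. Single genes turned sign. HOXA7 was at −0.421 kb (q), −1.25 kb (common enrichment), −0.149 kb (5 kb), −3.79 kb (20 kb) and −2.96 kb (50 kb), against 0.395 kb. HOXA9 was at 0.850 kb and HOXA11 at 0.371 kb for the body alone, and HOXA11 at 0.833 kb with 5 kb. Among the single-gene values, 31 did not move, 33 moved in size and 8 turned sign. Most of those that did not move were differences of 0 kb at HOXA2, HOXA4, HOXA5 and HOXA6, which had no cover to move. The cause was not tested. No paired analysis was possible because each treatment had 1 library. The depth limits single peaks, whose lowest pileups were 7 fragments in the combination list and 5 in the OTX015 list.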
